A study of Mus musculus with 32 samples.

Results

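The genes of collagens and of the basement membrane were followed through bulk RNA-seq of the mouse brain 1 day after stroke. They were all row names of the deposited gene counts that spell a collagen chain (Col, a number, a and a number) or a laminin chain (Lama, Lamb or Lamc and a digit), together with Nid1, Nid2, Hspg2, Agrn and Fn1. This rule found 60 genes of the 33280 in each table. The family was proposed because Col3a1 and Col4a1 were already known to be higher in the stroke hemisphere of brain tissue. Calls and shares of members for tissue in the ipsilateral against the contralateral hemisphere therefore serve as a description only. No p-value of a single member is printed for that comparison. The animals were wild-type C57BL/6JCrl mice of both sexes. The 4 BLZ945 mice (C2, C3, C4 and D1) had received BLZ945, a brain-penetrant inhibitor of the CSF-1 receptor that depletes microglia and CNS-associated macrophages, by gavage at 200 mg per kg daily for 7 days. The paper reports, from mice without stroke, that both cell types had recovered in number by the interval used here. It traces the returned microglia to surviving microglia, and the returned border macrophages of the brain partly to circulating monocytes. It therefore treats such mice as repopulated, not depleted, when the stroke was set. The 4 CTL mice (A2, A3, A4 and B1) had received the cyclodextrin vehicle. A thromboembolic stroke was set in every mouse 8 weeks later by injecting thrombin into the middle cerebral artery through an opened skull and dura, so the contralateral hemisphere of the same animal was the only control and no mouse without stroke was sampled. From each hemisphere, whole brain tissue and sorted subdural CNS-associated macrophages (sdCAMs; CD206-positive, CD45-positive, CD11b-positive cells of brain labelled as free of choroid plexus) were sequenced, 32 libraries in all.

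Basement membranes are thin sheets of matrix under endothelium and epithelium and around mural cells. Laminin trimers (an alpha, a beta and a gamma chain) and networks of collagen IV form the sheet, and nidogens, perlecan (Hspg2) and agrin (Agrn) link and anchor the networks. In the brain they wrap the vessels, separate the perivascular space from the astrocyte endfeet and line the pia, the places where border macrophages live. Fibronectin (Fn1) is a glycoprotein of plasma and of provisional matrix, and fibril-forming collagens belong to the fibroblasts of meninges and larger vessels.

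Total counts on genes were between 9288717 and 12781505 in the 16 tissue libraries and between 7397393 and 11081409 in the 14 sdCAM libraries used, where 3 counts correspond to at most 0.321 and 0.389 CPM (the usual count unit relative to library size, here after TMM scaling). The sdCAM libraries of the ipsilateral hemisphere of A3 and C2, labelled as degraded RNA and with 54055 and 55155 counts, were left out. For the tissue of mouse A3, the sample label and the hemisphere letter in the count column name are opposite. The label was followed, matched by the library number and sequencer index that the column shares with it. Exchanging the hemispheres of A3, as the column letters would have it, lowered the members called in tissue from 1 to 0 in CTL and from 6 to 2 (Col3a1 and Col4a1) in BLZ945 mice. In the sdCAM libraries the summed level of 9 microglia markers, 8465 to 34129.5 CPM, was above that of 13 border macrophage markers, 2301 to 14592 CPM, in 13 of 14 libraries. Markers of endothelium and of choroid plexus epithelium were also present there, as given with the sdCAM results.

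Upstream sequence was read for some members called in a comparison of hemispheres, 250 bases before the annotated start, 5′ to 3′ on the strand of the gene, from the RefSeq promoter table on GRCm38.p6 (43 of the 60 members matched). Capitals mark matches, on either strand, of GGGCGG, known as the GC box, of the letters CCAAT, of TATAAA, known as the TATA box, and of the letters TGACTCA, which were searched one by one and may overlap. Over 32851 promoters of the table, 32.7% held GGGCGG, 33.8% CCAAT, 12.4% TATAAA and 4.46% TGACTCA. Among the 43 matched members, 26 held GGGCGG, 15 CCAAT, 5 TATAAA and 1 (Col6a1) TGACTCA. The windows of Col3a1, which encodes the fibrillar collagen of soft tissue and vessel walls, and of Col10a1, the short-chain collagen known from growth plate cartilage, were chosen because both genes rose in tissue of BLZ945 mice; each held 1 TATAAA and no GGGCGG. The windows of Col8a1, a short-chain collagen of vessel walls and specialised basement membranes, and of Lama5, the laminin chain of mature endothelial and epithelial basement membranes, were chosen because both fell in sdCAM libraries; both held GGGCGG several times and no TATAAA. These letters did not follow the direction of change in other members: Col4a2, which rose in tissue, held 2 GGGCGG and no TATAAA, and Lamb2 and Col6a3, which fell in sdCAM libraries, held none of the 4. The window of Lamb2 also takes in annotated exon bases of Lamb2, so it is not upstream sequence alone. Col4a1 and Col4a2, which encode the chains of the common collagen IV trimer, lie head to head on chromosome 8, and the first exons of their annotated transcripts share 22 bases. A match describes these letters only, and the shared bases are printed without capitals.
Col3a1, chr1:45311288-45311537, plus strand: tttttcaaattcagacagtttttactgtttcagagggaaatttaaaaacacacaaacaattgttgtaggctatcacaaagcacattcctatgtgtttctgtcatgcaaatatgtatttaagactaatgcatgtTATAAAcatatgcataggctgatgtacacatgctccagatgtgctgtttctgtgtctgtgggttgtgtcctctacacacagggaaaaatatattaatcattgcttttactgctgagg
Col10a1, chr10:34389731-34389980, plus strand: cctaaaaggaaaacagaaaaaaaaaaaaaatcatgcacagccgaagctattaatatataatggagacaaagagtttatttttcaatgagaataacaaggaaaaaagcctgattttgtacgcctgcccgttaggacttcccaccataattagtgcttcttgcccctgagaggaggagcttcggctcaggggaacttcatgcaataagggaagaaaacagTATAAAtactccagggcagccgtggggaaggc
Col8a1, chr16:57754738-57754987, minus strand: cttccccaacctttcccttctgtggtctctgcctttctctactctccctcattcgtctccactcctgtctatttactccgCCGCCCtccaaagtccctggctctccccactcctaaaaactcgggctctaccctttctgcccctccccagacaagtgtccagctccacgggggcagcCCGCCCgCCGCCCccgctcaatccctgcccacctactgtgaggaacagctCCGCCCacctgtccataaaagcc
Lama5, chr2:180225860-180226109, minus strand: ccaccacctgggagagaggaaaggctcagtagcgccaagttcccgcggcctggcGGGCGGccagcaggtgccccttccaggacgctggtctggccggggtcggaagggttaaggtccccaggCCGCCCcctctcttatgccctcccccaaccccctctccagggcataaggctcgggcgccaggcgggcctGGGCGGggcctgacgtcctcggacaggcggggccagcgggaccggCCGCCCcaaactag
Col4a1 and Col4a2, chr8:11312805-11312826, plus strand: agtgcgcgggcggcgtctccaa

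In tissue, 59 of the 60 members had a count in every library, and 24 had a mean above 10 CPM. The 5 members with the highest mean CPM held 47.1% of the summed CPM of all members. Per kilobase of exon, Agrn was highest at 18.3 CPM per kb, followed by Col4a2 at 12.0, Col6a1 at 10.2, Col4a1 at 9.82 and Fn1 at 9.17. Lamb2 (6.18) and Lamc1 (5.78), the beta and gamma chains of vascular laminins, stood highest among the laminins. In sdCAMs Fn1 had the highest mean over the 14 libraries, 17.7 CPM per kb, above Col4a1 (10.3) and Lamb2 (8.99). Col9a3 had a mean of 10.6 CPM per kb but a median of 1.53, and without the contralateral library of C4 its mean was 5.96, below Col4a1 (9.64) and Lamb2 (7.96). There 10 members had a count in every library and 22 had a mean below 1 CPM, Col6a4 had none and Col11a1 had 2 counts, so that 58 members were tested. All members together made up 0.0809% to 0.151% of the counts of a tissue library and 0.0120% to 0.181% of an sdCAM library.

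In whole brain tissue, few of the 60 members were called between hemispheres, and those that were called were higher on the stroke side. A gene was called at an adjusted p under 0.05 (edgeR, over all genes tested) and a log2 fold change beyond 0.59. In CTL mice 1 member was called higher, Fn1, which is 1.67% of the members, where 0.443% of all 18968 genes tested were called higher. In BLZ945 mice 6 members were called higher (10% against 1.12% of all genes): Fn1, Col4a1, Col4a2, Col3a1, Col5a2 and Col10a1. No member was called lower in CTL mice (0% of all genes were) or in BLZ945 mice (0.0369% of all genes). At an unadjusted p under 0.05, 9 members in CTL (15%, beside 6.23% of all genes) and 16 in BLZ945 mice (26.7%, beside 10.8%) differed in either direction. DESeq2 called 1 and 9 members higher, beside 0.722% and 1.76% of all genes, and 0 lower. The family was proposed from this contrast, so these shares carry no weight of their own. In these bulk libraries, more cells of a type and more RNA per cell cannot be told apart.

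Fn1 rose in both treatments. In CTL mice A2, A3, A4 and B1 it stood at 78.7, 80.8, 74.4 and 60.9 CPM in the contralateral and 106, 119, 119 and 133 CPM in the ipsilateral hemisphere. In BLZ945 mice C2, C3, C4 and D1 the contralateral values were 66.2, 75.8, 67.6 and 86.3 CPM and the ipsilateral values 197, 123, 147 and 181 CPM. In each treatment all 4 ipsilateral libraries lay above all contralateral ones, and the highest values were those of BLZ945 mice C2 and D1. The log2 fold change was 0.69 ± 0.13 (SE) in CTL (1.62-fold) and 1.13 ± 0.14 (SE) in BLZ945 mice (2.18-fold), n = 4 mice each. Without any 1 of the CTL mice the call in CTL was lost, with log2 fold changes of 0.78 without A2, 0.74 without A3, 0.71 without A4 and 0.56 without B1. With the hemispheres of A3 exchanged, Fn1 was called in neither treatment (0.40 in CTL and 1.13 in BLZ945 mice).

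The chains of the common collagen IV trimer rose in BLZ945 mice. Col4a1 measured 51.0, 63.2, 49.0 and 58.5 CPM contralaterally and 77.1, 87.3, 72.2 and 89.3 CPM ipsilaterally in CTL mice. Its values in BLZ945 mice were 47.2, 63.1, 37.9 and 48.5 CPM contralaterally and 121, 91.0, 99.2 and 117 CPM ipsilaterally. The hemispheres did not overlap in either treatment, and every mouse was higher on the stroke side. Col4a1 changed by 0.56 ± 0.14 (SE) on the log2 scale in CTL mice, below the fold limit, and by 1.13 ± 0.14 (SE) in BLZ945 mice (2.18-fold). Col4a2 went with it, at 67.2, 71.6, 64.7 and 64.1 CPM contralaterally against 89.5, 92.1, 77.8 and 88.7 CPM ipsilaterally in CTL mice. In BLZ945 mice Col4a2 was at 55.9, 76.4, 46.1 and 54.5 CPM contralaterally and 128, 96.5, 95.8 and 98.6 CPM ipsilaterally, with C2 far above the other 3. Again all ipsilateral values exceeded all contralateral ones, by 0.38 ± 0.13 (SE) in CTL and 0.85 ± 0.13 (SE) in BLZ945 mice. Col4a2 was not called with the hemispheres of A3 exchanged, at 0.85. The 4 other collagen IV chains, which have narrower tissue use, had means of 1.24 to 4.49 CPM and were not called, with log2 fold changes between -0.50 (Col4a3 in CTL mice) and 0.41 (Col4a6 in BLZ945 mice).

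**Figure D1:**
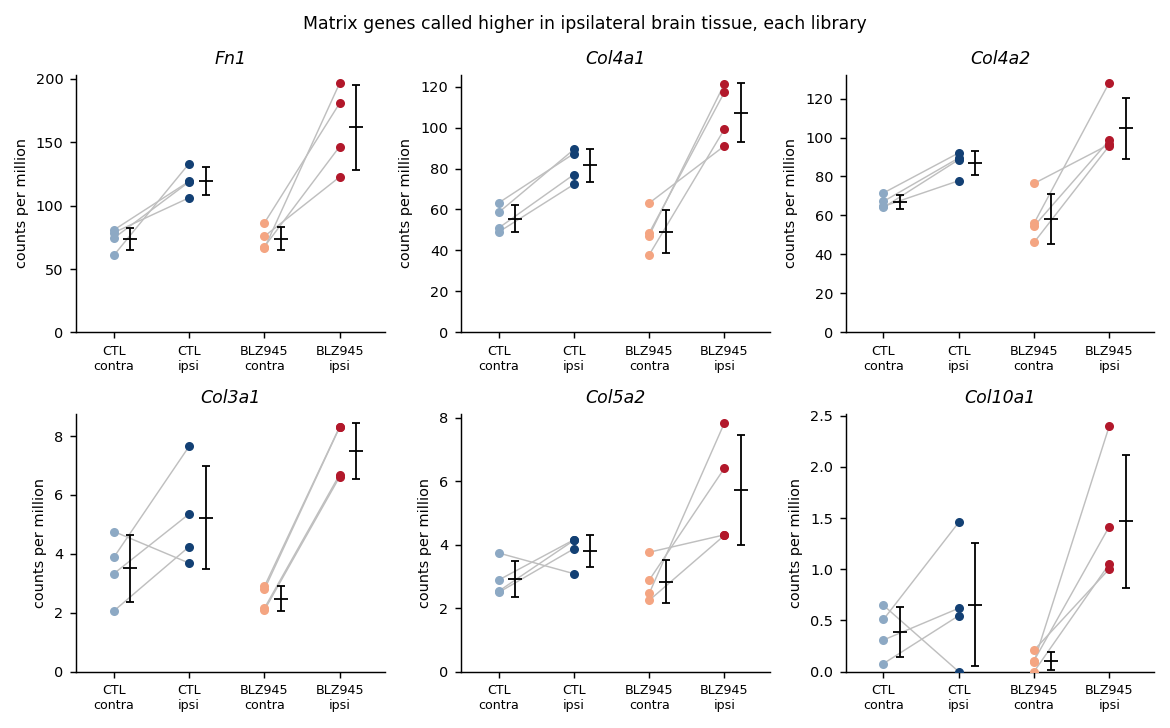
Levels in CPM (vertical axes, linear from 0) of the 6 members called higher in ipsilateral tissue, a panel for each; points are libraries, grey lines join the hemispheres of a mouse, and the black marks are means with SD (n = 4 mice in each of the 4 groups). Fn1, Col4a1 and Col4a2 were higher on the stroke side in all 8 mice, Col3a1 and Col5a2 in all 4 BLZ945 mice.

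Among the 11 fibril-forming collagen genes, 2 rose in BLZ945 mice. Col3a1 read 2.89, 2.09, 2.79 and 2.15 CPM in the contralateral and 8.31, 6.62, 8.30 and 6.69 CPM in the ipsilateral hemisphere of BLZ945 mice, a log2 fold change of 1.59 ± 0.27 (SE) (3.01-fold). In CTL mice Col3a1 went from 3.88, 4.76, 2.06 and 3.33 CPM to 7.65, 3.69, 4.24 and 5.36 CPM, 0.57 ± 0.26 (SE), not called. The BLZ945 hemispheres were apart, whereas the CTL hemispheres overlapped through mouse A3, which was lower on the stroke side. Col5a2, a chain that joins collagen I fibrils and limits their width, was at 2.46, 3.76, 2.88 and 2.25 CPM contralaterally and 7.84, 4.31, 6.41 and 4.30 CPM ipsilaterally in BLZ945 mice (1.01 ± 0.24 SE). In CTL mice it was at 2.54, 3.74, 2.89 and 2.50 CPM contralaterally and 4.14, 3.09, 4.16 and 3.87 CPM ipsilaterally (0.39 ± 0.24 SE), with overlap. The call of Col5a2 was lost without C2 (0.76), C4 (0.97) or D1 (1.03), without any 1 of the CTL mice, with A3 exchanged, with upper-quartile factors, with no filter on low counts and without the libraries rich in choroid plexus markers. The collagen I chains Col1a1 and Col1a2, the bulk of fibrils in most connective tissue, changed by 0.66 and 0.40 in BLZ945 and by 0.24 and -0.07 in CTL mice and were not called. Col11a2, a minor fibril chain, lay lower on the stroke side without overlap in both treatments, 29.3 against 22.6 CPM in CTL and 22.6 against 17.3 CPM in BLZ945 mice, but its log2 fold change of -0.38 in BLZ945 mice was short of the limit.

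Col10a1 was called on few counts. It reached 1.42, 1.00, 1.05 and 2.40 CPM in the ipsilateral against 0.107, 0.209, 0 and 0.0936 CPM in the contralateral hemisphere of BLZ945 mice, with no overlap. In CTL mice the values were 0.547, 1.46, 0.619 and 0 CPM ipsilaterally and 0.0793, 0.510, 0.309 and 0.647 CPM contralaterally, with overlap. The 4 contralateral counts of all 4 BLZ945 mice together leave the fold imprecise (3.73 ± 0.89 SE on the log2 scale), and the call was lost without any 1 of the BLZ945 mice, with 3.78 without C2, 4.41 without C3, 3.47 without C4 and 3.37 without D1, and also without A2, A3 or A4 and with A3 exchanged. Exons of the antisense gene Nt5dc1 cover 0.575% of the exon bases of Col10a1, and the library kit does not mark strand, so reads from the pair cannot be told apart there. Antisense exons cover more of some other members, among them Nid2 (8.45%), Col9a3 (6.07%) and Fn1 (2.5%), with the same limit.

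The 16 tissue libraries come from 8 mice, and same-mouse libraries varied together. With the mouse as a block, 11 members instead of 6 were called higher in BLZ945 mice. The calls over all genes tested rose with the block too, as given at the end, so this gain was not confined to the members. The 5 added were Hspg2 (1.02), Nid1 (0.81), which joins laminin to collagen IV, Lama4 (0.64), the laminin alpha chain that endothelium makes most widely, Col1a1 (0.64) and Col18a1 (0.64), the basement membrane proteoglycan from which endostatin is cut. Hspg2 had means of 16.7 CPM contralaterally and 33.6 CPM ipsilaterally in BLZ945 mice, and 17.2 and 24.8 CPM in CTL mice. Nid1 had 9.68 and 17.5 CPM in BLZ945 and 9.47 and 13.3 CPM in CTL mice. In CTL mice the block called 1 member as before, Fn1.

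Of the members that the block added, the linkers and the endothelial laminin chain are given for each mouse. Hspg2 was at 20.04, 11.6, 11.8 and 23.4 CPM contralaterally and 42.3, 21.9, 28.1 and 42.4 CPM ipsilaterally in BLZ945 mice. In CTL mice it was at 15.9, 26.5, 13.3 and 13.04 CPM contralaterally and 19.4, 29.8, 21.5 and 28.6 CPM ipsilaterally. Every one of the 8 mice was higher on the stroke side, but the ranges of the hemispheres overlapped in both treatments. Nid1 had 9.21, 8.78, 10.05 and 10.7 CPM contralaterally and 26.3, 13.3, 14.9 and 15.4 CPM ipsilaterally in BLZ945 mice and 11.5, 11.3, 8.05 and 7.03 CPM contralaterally and 12.0, 15.3, 10.2 and 15.5 CPM ipsilaterally in CTL mice. For Nid1 the hemispheres were apart in BLZ945 mice, with C2 highest, and overlapped in CTL mice. Lama4 stood at 5.46, 7.53, 5.68 and 6.93 CPM contralaterally and 8.97, 10.5, 9.25 and 10.99 CPM ipsilaterally in BLZ945 mice. In CTL mice Lama4 stood at 5.07, 8.16, 5.57 and 4.72 CPM contralaterally and 6.95, 8.57, 9.46 and 9.15 CPM ipsilaterally. Again only the BLZ945 hemispheres were apart, and each of the 8 mice was higher ipsilaterally. Without the block, the log2 fold changes in BLZ945 mice were 1.01 ± 0.28 (SE) for Hspg2, 0.85 ± 0.22 (SE) for Nid1 and 0.63 ± 0.18 (SE) for Lama4, and in CTL mice 0.52, 0.48 and 0.53.

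Collagen VI varied between mice more than between hemispheres. Col6a1, the first chain of its trimer, read 20.8, 35.3, 79.7 and 40.0 CPM contralaterally and 36.3, 26.8, 69.2 and 23.3 CPM ipsilaterally in CTL mice. In BLZ945 mice it read 29.4, 90.2, 46.5 and 30.3 CPM contralaterally and 35.4, 60.3, 59.0 and 32.1 CPM ipsilaterally. Mice A4, C3 and C4 were high on both sides, and the hemispheres overlapped in both treatments. Its partner Col6a2 was at 12.6, 17.1, 15.6 and 13.8 CPM contralaterally and 19.3, 18.05, 24.4 and 19.98 CPM ipsilaterally in BLZ945 mice, where the ipsilateral values lay above all contralateral ones (0.46 ± 0.20 SE), and at 14.2, 13.6, 24.96 and 14.7 CPM contralaterally and 16.6, 12.1, 19.5 and 12.4 CPM ipsilaterally in CTL mice, with overlap (-0.15 ± 0.20 SE). Col15a1, a multiplexin of vessel basement membranes, had log2 fold changes of -0.23 and -0.21, and the membrane collagen Col23a1 of -0.08 and -0.04 in CTL and BLZ945 mice.

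Most of the family was not called. Across the 60 members the median log2 fold change was -0.07 in CTL and 0.12 in BLZ945 mice, beside -0.01 and -0.0032 over all genes tested. Of the 11 laminin genes none was called, except Lama4 in BLZ945 mice with the mouse as a block. Lamb1 and Lamc1, of the widespread trimers, changed by 0.15 and 0.19 in BLZ945 mice, and Lama2, the alpha chain of the astrocyte and pial side, by -0.09. Agrn, which neurons also make, was at 189 ± 9.61 (SD, n = 4) CPM contralaterally and 159.8 ± 16.5 (SD, n = 4) ipsilaterally in CTL mice and at 172 ± 14.9 (SD, n = 4) and 159 ± 19.4 (SD, n = 4) in BLZ945 mice. None of the 6 collagen VI genes, whose beaded filaments lie around vessels and nerves, was called, nor were the 4 membrane collagens, of which Col25a1, made by neurons, had means of 66.9 to 73.1 CPM in the 4 groups. Col16a1, a fibril-associated collagen, had group means of 14.7 CPM in the contralateral hemisphere of BLZ945 mice and 22.05 to 22.9 CPM in the other 3 groups.

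**Figure D2:**
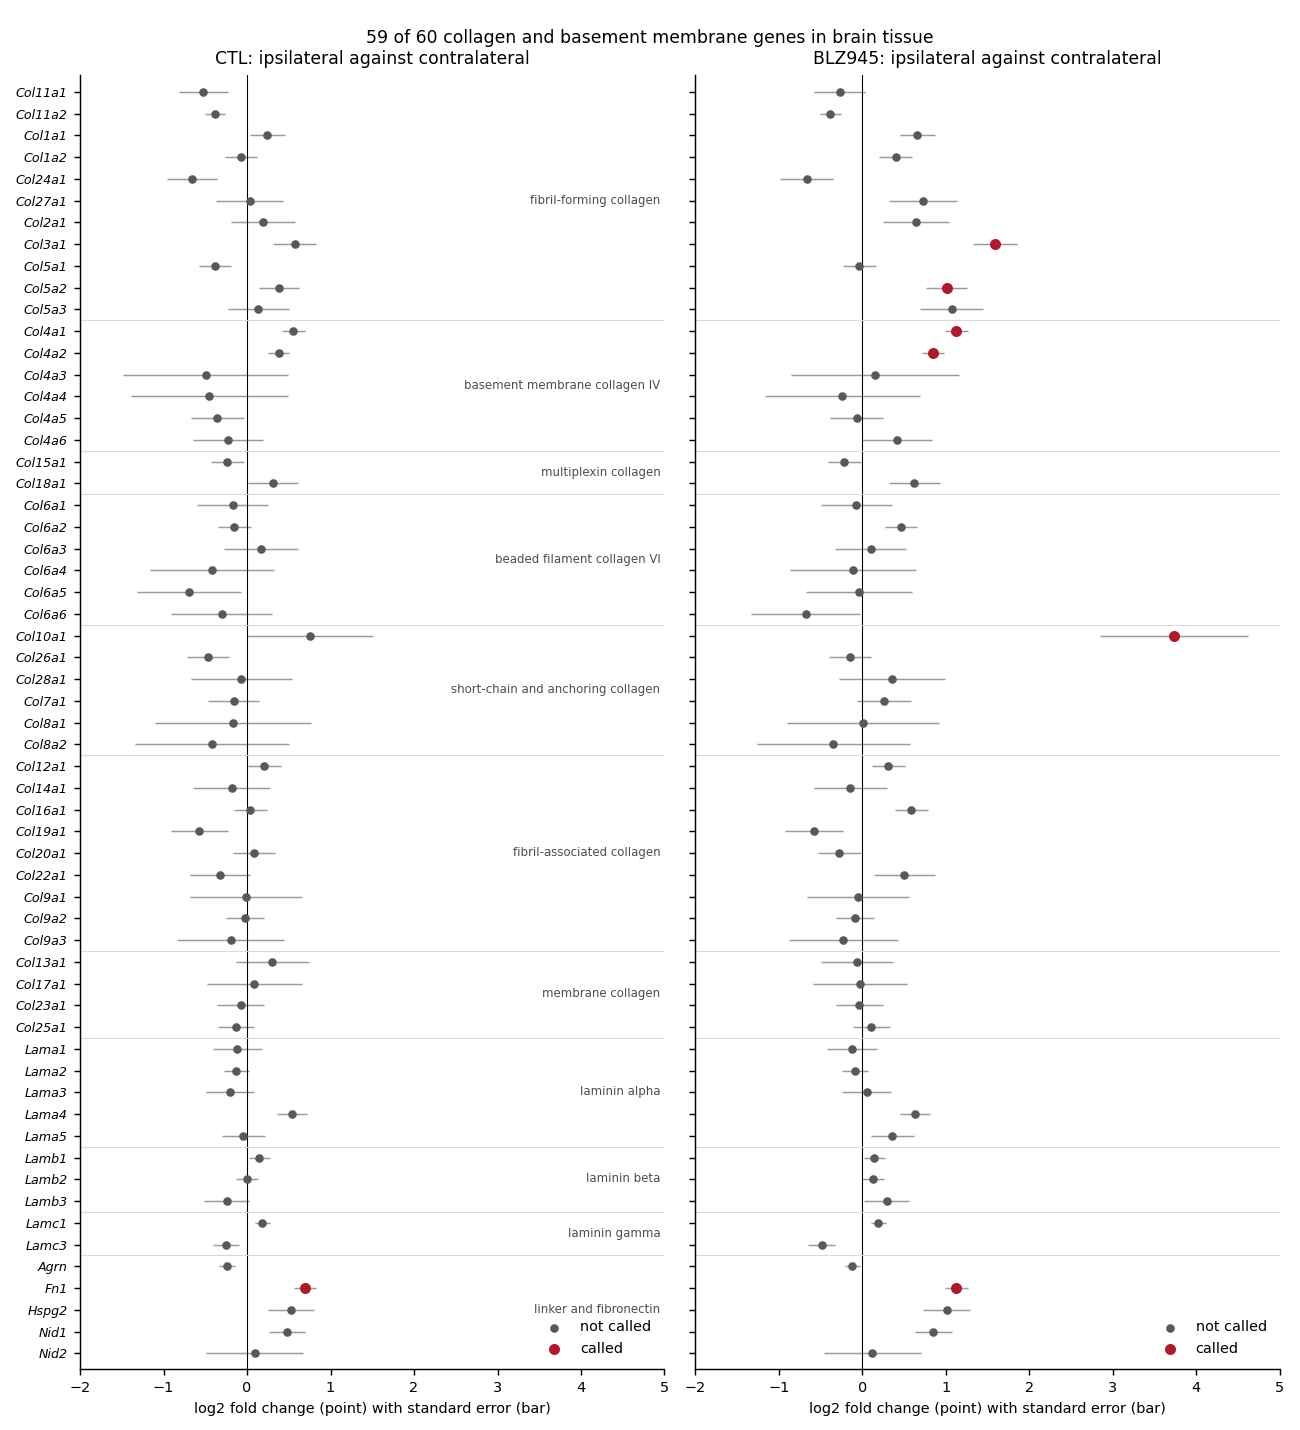
Log2 fold change of the ipsilateral against the contralateral hemisphere (horizontal axis, point) with its standard error (bar) for 59 of the 60 members, grouped by class (vertical axis), in tissue of CTL (left) and BLZ945 mice (right), n = 4 each. Called members are red, 1 in CTL mice and 6 in those given BLZ945. The members not called lie on both sides of 0, and in BLZ945 mice some of them, among them Hspg2, Nid1, Col1a1 and Lama4, lie well above it.

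Col4a1, Fn1 and Col3a1 had larger fold changes in BLZ945 than in CTL mice, but the difference itself was not called for any member. For the difference of the responses, edgeR called 0 of 60 members and 0% of all genes in either direction, with 6 members (10%) and 2.04% of all genes at an unadjusted p under 0.05. DESeq2 called 0 members as well. The difference (BLZ945 minus CTL) was 0.57 ± 0.19 (SE) for Col4a1, 0.43 ± 0.19 (SE) for Fn1 and 1.02 ± 0.37 (SE) for Col3a1, on the log2 scale. Within the ipsilateral hemisphere, BLZ945 against CTL, 0 members and 0% of genes in either direction were called (7 members, or 11.7%, and 4.52% of genes at an unadjusted p under 0.05; 0 members by DESeq2). There Col4a1 differed by 0.40 ± 0.13 (SE), adjusted p = 0.96, Fn1 by 0.44 ± 0.13 (SE), adjusted p = 0.96, and Col3a1 by 0.51 ± 0.25 (SE), adjusted p = 0.96. In the contralateral hemisphere, again 0 members and 0% of genes in either direction passed (2 members, or 3.33%, and 3.25% of genes at an unadjusted p under 0.05; 0 members by DESeq2), and Col4a1 differed by -0.17 ± 0.14 (SE) in BLZ945 against CTL mice.

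Vessel markers moved less than collagen IV. The summed CPM of 16 endothelial markers was 604 ± 64.5 contralaterally and 645 ± 98.0 ipsilaterally in CTL mice, and 604 ± 50.6 and 668 ± 93.7 in BLZ945 mice (mean ± SD, n = 4). That of 14 mural cell markers ranged from 258 to 355 CPM over the libraries. Col4a1 and Col4a2 together, per 100 CPM of endothelial and mural markers, were at 13.2, 12.99, 13.7 and 13.8 contralaterally and 20.4, 16.7, 17.2 and 17.7 ipsilaterally in CTL mice. In BLZ945 mice this ratio was 11.2, 15.8, 10.5 and 10.6 contralaterally and 24.1, 21.4, 22.3 and 20.98 ipsilaterally. The hemispheres were apart in both treatments on this scale too, with the ipsilateral values of BLZ945 mice above those of CTL mice. Fn1 per 100 CPM of 13 border macrophage markers was 119.9, 101, 124 and 103 contralaterally and 135, 149, 166 and 185 ipsilaterally in CTL mice, apart, and 95.1, 148, 116 and 126 contralaterally and 189, 137, 185 and 204 ipsilaterally in BLZ945 mice, overlapping through C3. The border macrophage markers themselves went from 61.9 ± 8.80 to 90.4 ± 10.3 CPM in BLZ945 mice and from 66.3 ± 9.63 to 75.6 ± 4.40 in CTL mice, and 1 of 13 (3 with the mouse as a block) was called higher in BLZ945 mice. Of 16 endothelial and 16 fibroblast markers, 2 and 2 (3 and 4 with the block) were called higher in BLZ945 and 0 and 0 (1 and 1) in CTL mice, and none of the 14 mural markers was. Summed fibroblast markers were at 795 to 1056 CPM. Pdgfra is among them and was also used as a marker of the oligodendrocyte lineage, so this sum does not follow fibroblasts alone. The fibroblast markers called higher in BLZ945 mice without the block were Aldh1a2 and Mgp. The part of these cell types in the collagen and fibronectin values was not tested.

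**Figure D3:**
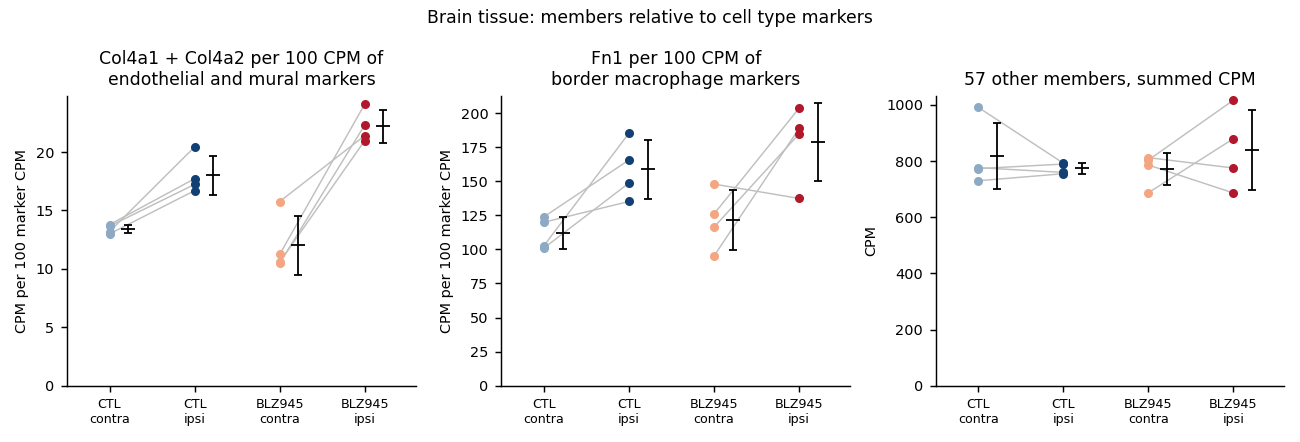
Tissue values per library, joined by mouse, with means and SD (n = 4), by treatment and hemisphere (horizontal axes): Col4a1 and Col4a2 per 100 CPM of endothelial and mural markers (left), Fn1 per 100 CPM of border macrophage markers (middle) and the summed CPM of the 57 other members (right), vertical axes linear from 0. The collagen IV ratio separates the hemispheres in both treatments, whereas the sum of the other members overlaps in both.

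Col8a1, Col8a2 and Col9a3 differed between tissue libraries by up to 121 against 12.2 CPM in sum, but not by hemisphere. Their sum was 22.9, 88.7, 19.5 and 40.4 CPM contralaterally and 16.8, 79.7, 18.7 and 30.3 CPM ipsilaterally in CTL mice. In BLZ945 mice it was 84.2, 12.96, 18.5 and 80.8 contralaterally and 121, 12.2, 18.2 and 18.8 CPM ipsilaterally. The libraries with the high values (A3, B1, C2 and the contralateral one of D1) were also those with the most choroid plexus markers, whose 8 genes summed to 81.3, 2393, 25.9 and 689 contralaterally and 50.3, 2651, 26.5 and 359 CPM ipsilaterally in CTL mice and to 2501, 7.53, 22.2 and 2962 contralaterally and 4395, 10.4, 29.2 and 55.6 CPM ipsilaterally in BLZ945 mice. Leaving out the 7 tissue libraries with over 300 CPM of these markers left 0 members called in CTL and 1 (Fn1) in BLZ945 mice, with 2 or 3 libraries a group. The calls over all genes in this smaller set are not given here, so the loss of calls is not read as particular to the members. The log2 fold changes in BLZ945 mice were then 1.02 for Col4a1, 1.55 for Col3a1 and 3.75 for Col10a1, close to 1.13, 1.59 and 3.73 with all libraries, and 0.66 for Col4a2 and 0.59 for Col5a2, beside 0.85 and 1.01. Fn1 in CTL mice was at 0.55, beside 0.69.

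In the sdCAM libraries the called members were all lower in the ipsilateral hemisphere. In CTL mice edgeR called 8 of 58 members lower (13.8%, beside 2.36% of all 18297 genes tested) and 0 higher (0.426% of all genes). In BLZ945 mice 7 were called lower (12.1%, beside 4.41% of all genes) and 0 higher (1.2% of all genes). In either direction, 20 members in CTL (34.5%, beside 18.3% of all genes) and 14 in BLZ945 mice (24.1%, beside 22.3% of all genes, a like share) had an unadjusted p under 0.05. DESeq2 called 10 and 13 members lower, beside 8.19% and 10.9% of all genes, and 0 higher. Col4a1, Col4a2, Lama5, Lamb2, Col8a2 and Col9a3 were called in both treatments, Col18a1 and Col8a1 in CTL and Col6a3 in BLZ945 mice. The median log2 fold change of the members was -2.46 in CTL and -1.37 in BLZ945 mice, against -0.11 and -0.15 over all genes tested. Setting genes with no count in any library of 1 group to their bound at 3 counts gave -2.19 and -1.04.

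Collagen IV fell in both treatments. Col4a1 was at 74.0, 162, 76.0 and 91.7 CPM in the contralateral sdCAMs of CTL mice A2, A3, A4 and B1 and at 11.8, 24.3 and 8.58 CPM in the ipsilateral ones of A2, A4 and B1. In BLZ945 mice the values were 119, 181, 146 and 128 CPM contralaterally (C2, C3, C4 and D1) and 5.12, 24.1 and 29.5 CPM ipsilaterally (C3, C4 and D1). All ipsilateral libraries were below all contralateral ones in both treatments. The log2 fold change was -2.77 ± 0.52 (SE) in CTL (adjusted p = 0.013, 6.80-fold lower) and -2.87 ± 0.52 (SE) in BLZ945 mice (adjusted p = 0.0061, 7.31-fold lower). Col4a2 had 36.9, 38.6, 55.4 and 34.9 CPM contralaterally and 4.01, 0.130 and 4.83 CPM ipsilaterally in CTL mice. In BLZ945 mice Col4a2 had 74.8, 64.6, 66.5 and 50.9 CPM contralaterally and 0.366, 13.7 and 2.16 CPM ipsilaterally. It was likewise lower in every ipsilateral library, by -3.78 ± 0.94 (SE) (adjusted p = 0.045) and -3.57 ± 0.93 (SE) (adjusted p = 0.035). With the mouse as a block the adjusted p of Col4a2 in CTL mice was 0.0928, which lost the call.

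Lama5 and Lamb2, an alpha and a beta chain of mature vascular and epithelial laminins, fell as well. Lamb2 measured 38.7, 71.7, 102 and 68.0 CPM contralaterally and 2.51, 14.9 and 21.9 CPM ipsilaterally in CTL mice. In BLZ945 mice it measured 90.3, 87.7, 136 and 83.9 CPM contralaterally and 12.8, 22.7 and 11.6 CPM ipsilaterally. The hemispheres did not overlap, with log2 fold changes of -2.42 ± 0.54 (SE) (adjusted p = 0.029) and -2.66 ± 0.55 (SE) (adjusted p = 0.012). Lama5 was at 11.5, 6.10, 8.69 and 7.10 CPM contralaterally and at 0.125, 0.259 and 0 CPM ipsilaterally in CTL mice, and at 11.8, 22.9, 12.3 and 6.87 contralaterally and 0, 0.502 and 0.103 CPM ipsilaterally in BLZ945 mice. It thus dropped close to a single count per library. Summed over libraries this was 3 against 353 counts in CTL mice, a contralateral level 70.1 times the ipsilateral one (95% counting interval 23.8 to 342), and 5 against 504 in BLZ945 mice, 70.1 times (29.8 to 217). These intervals cover counting error only. The adjusted p was 0.016 in CTL (0.0804 with the mouse as a block, which lost the call) and 0.0089 in BLZ945 mice. Lamc1, the gamma chain of the same trimers, went from 29.9 to 6.42 CPM in CTL and from 35.1 to 17.5 CPM in BLZ945 mice and was not called (-2.21 ± 0.92 SE, adjusted p = 0.22, and -1.005 ± 0.87 SE, adjusted p = 0.53). Lama4 was called lower in BLZ945 mice only with the mouse as a block (adjusted p = 0.0323).

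A group of 3 short-chain and fibril-associated collagens fell from contralateral levels that differed widely between mice. Col8a2 read 6.40, 33.6, 39.1 and 18.8 CPM contralaterally and 0, 2.85 and 0.858 CPM ipsilaterally in CTL mice. In BLZ945 mice it read 24.9, 94.6, 99.6 and 37.1 contralaterally and 2.56, 6.40 and 4.43 CPM ipsilaterally. No ipsilateral value reached a contralateral one within a treatment, and the log2 fold changes were -4.30 ± 0.95 (SE) (adjusted p = 0.026) and -3.84 ± 0.90 (SE) (adjusted p = 0.022). Col9a3, a chain of the cartilage-type collagen IX, had 8.65, 12.4, 59.1 and 2.29 CPM contralaterally against 0, 0.259 and 0 CPM ipsilaterally in CTL mice. In BLZ945 mice Col9a3 had 15.8, 146, 273 and 49.4 contralaterally against 3.17, 2.01 and 0 CPM ipsilaterally. The groups were apart in both treatments, and the highest values were again those of A4 and C4. In CTL mice 2 ipsilateral and 941 contralateral counts gave a ratio of 280.3 (95% counting interval 77.4 to 2318, adjusted p = 0.029), and in BLZ945 mice the log2 fold change was -6.15 ± 1.37 (SE) (adjusted p = 0.018). Col8a1 had 0.282, 6.68, 56.8 and 26.2 CPM contralaterally against 0.125, 0 and 0.107 CPM ipsilaterally in CTL mice, 2 ipsilateral and 985 contralateral counts (ratio 293, 81.0 to 2426, adjusted p = 0.046, and 0.0892 with the mouse as a block). In BLZ945 mice it had 22.9, 96.2, 222 and 43.9 contralaterally and 3.17, 0 and 12.0 CPM ipsilaterally and was not called (-4.23 ± 1.40 SE, adjusted p = 0.091). Mouse A2 had next to no Col8a1 on either side. Most contralateral counts of CTL mice came from A4, 700 of 941 for Col9a3 and 673 of 985 for Col8a1.

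Col18a1 and Col6a3 were called in 1 treatment each. Col18a1 was at 24.2, 44.3, 18.7 and 27.2 CPM contralaterally and 2.76, 2.59 and 0 CPM ipsilaterally in CTL mice (-4.01 ± 0.89 SE, adjusted p = 0.027, and 0.0709 with the mouse as a block). In BLZ945 mice Col18a1 had 60.2, 95.4, 72.4 and 31.2 contralaterally and 5.24, 28.5 and 7.001 CPM ipsilaterally (-2.26 ± 0.79 SE, adjusted p = 0.11). The hemispheres were apart in both treatments, and the difference between the responses, 1.76 ± 1.08 (SE), had an adjusted p of 1. Col6a3, the long chain of collagen VI, was at 11.7, 0.207, 1.11 and 3.69 CPM contralaterally and 0, 0 and 0.103 CPM ipsilaterally in BLZ945 mice. This rested on 1 against 141 counts (ratio 98.0, 17.3 to 3899, adjusted p = 0.044), most of them from C2, and was lost with the mouse as a block (adjusted p = 0.153). With the shallow ipsilateral libraries of A3 and C2 added back, its log2 fold change turned to 1.53. In CTL mice it had 5.08, 6.77, 4.30 and 0.655 contralaterally and 1.25, 5.19 and 1.82 CPM ipsilaterally, with overlap.

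The calls in sdCAMs depended on single mice. Without 1 CTL mouse, 1 or 2 of the 8 calls in CTL mice remained: Col8a2 and Lamb2 without A2, Col4a1 and Lama5 without A3, Col4a1 and Col8a2 without A4, and Lamb2 without B1. Of the 7 calls in BLZ945 mice, Col4a1 remained without C3, Col4a1, Col4a2 and Lama5 without C4, and Col4a1, Col9a3 and Lama5 without D1. Calls were also lost on leaving out a mouse of the other treatment: in CTL mice Col4a2 without C2, Col8a1 without C2 or C3 and Lamb2 without C3, and in BLZ945 mice Col6a3 without any 1 of the CTL mice. Col4a2 and Col6a3 in BLZ945 mice were lost without C2, which has no ipsilateral library. With the mouse as a block 4 members were called in CTL (Col4a1, Col8a2, Col9a3 and Lamb2) and 7 in BLZ945 mice. The calls over all genes under the block are not given for sdCAMs, so these counts have no background share beside them. With total counts as the only scaling, the median log2 fold change of all genes was -0.27 in CTL mice and -0.31 in those given BLZ945. The calls over all genes then split into 23 higher and 514 lower in CTL and 84 higher and 904 lower in BLZ945 mice, beside 78 and 432 and 220 and 807 with TMM scaling. The members called were within 1.5 times the TMM count under this scaling.

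**Figure D4:**
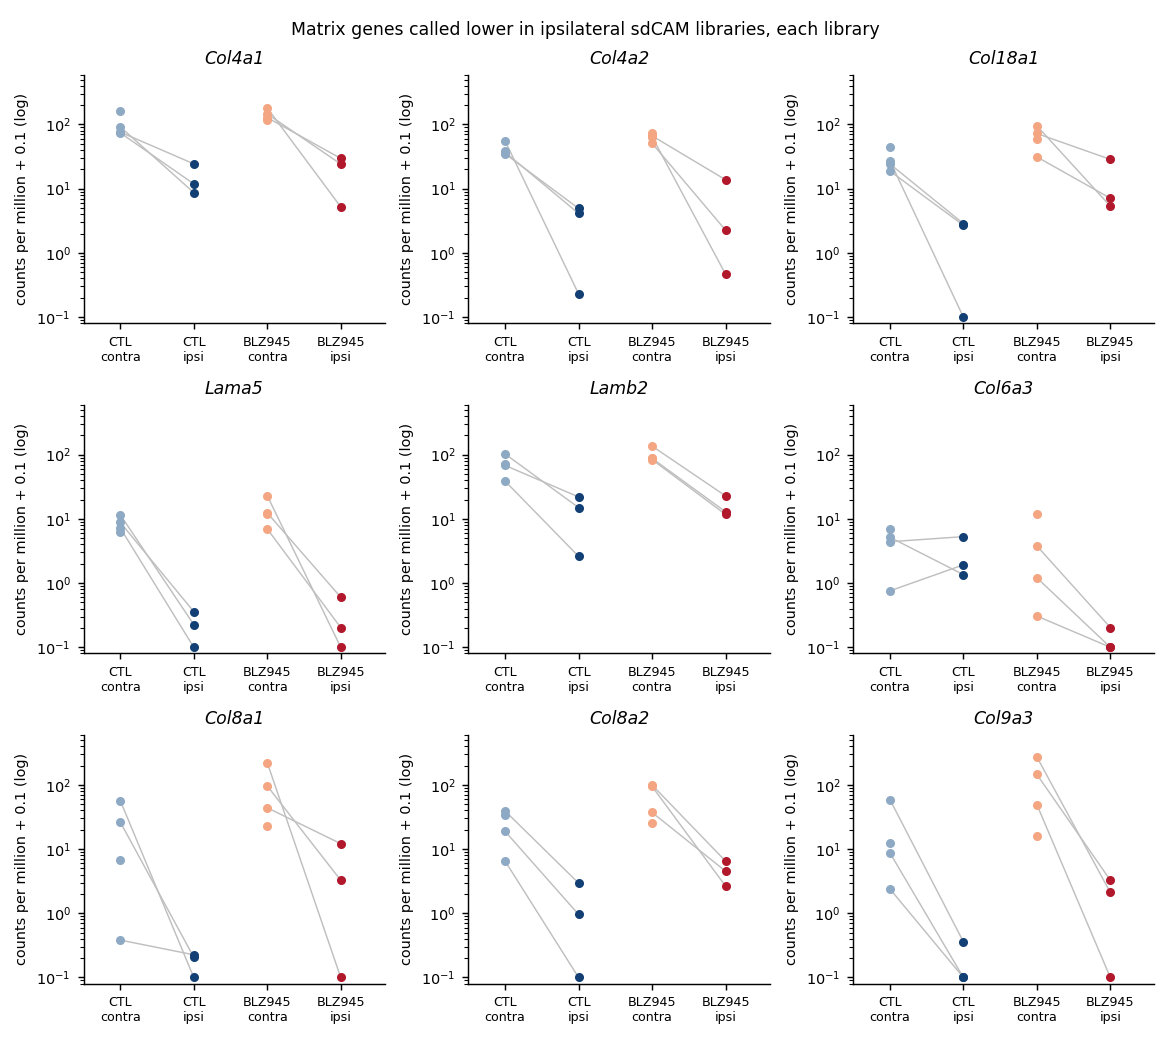
Levels in sdCAM libraries, in CPM + 0.1 on a log axis (vertical), of the 9 members called lower in ipsilateral libraries, a panel for each; points are libraries (4 contralateral and 3 ipsilateral in each treatment) and grey lines join the hemispheres of a mouse. Ipsilateral points lie below contralateral ones for Col4a1, Lama5 and Lamb2 in every mouse with both libraries, while Col6a3 overlaps in CTL mice.

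Other members with a sizeable level in sdCAMs were not called by edgeR. Fn1, which macrophages themselves make, was at 146, 134, 108 and 142 CPM contralaterally and 159.5, 11.5 and 387 CPM ipsilaterally in CTL mice (0.49 ± 0.92 SE, adjusted p = 0.84). In BLZ945 mice Fn1 was at 529, 55.8, 284 and 469 contralaterally and 10.1, 259 and 197 CPM ipsilaterally (-1.11 ± 0.95 SE, adjusted p = 0.53). The ipsilateral libraries of A4 and C3 were far below the rest, and the hemispheres overlapped in both treatments. Nid2, a nidogen, had 31.04, 21.1, 19.7 and 50.7 contralaterally and 14.3, 26.8 and 47.1 CPM ipsilaterally in CTL mice and 20.6, 26.1, 27.04 and 27.4 contralaterally and 5.73, 22.7 and 34.1 CPM ipsilaterally in BLZ945 mice, with log2 fold changes of -0.06 ± 0.53 (SE) and -0.28 ± 0.53 (SE). The values overlapped in both treatments, but these errors leave room for a change of the size of 1 log2 unit or more. Its relative Nid1 went from 16.1 to 1.61 CPM in CTL and from 25.4 to 3.20 CPM in BLZ945 mice and was not called (adjusted p = 0.24 and 0.23), although its ipsilateral values lay below all contralateral ones in both treatments. In CTL mice the hemispheres were also apart for Lamc1, at 22.01 to 42.5 CPM contralaterally and 0 to 10.2 CPM ipsilaterally (adjusted p = 0.22), and for Agrn, at 8.86 to 33.1 and 0 to 7.52 CPM (adjusted p = 0.29). Both overlapped in BLZ945 mice. Col3a1 (-1.81 and -0.50) and Col1a2 (-1.42 and -1.07), the fibroblast collagens, were not called in CTL or BLZ945 mice.

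Markers of other cell types moved with these members. The summed CPM of 16 endothelial markers was 2412 to 8311 in contralateral and 281 to 572 in ipsilateral sdCAM libraries, and 12 of 16 were called lower in CTL and 16 of 16 in BLZ945 mice. For 14 mural cell markers the sums were 1449 to 7503 and 82.7 to 414 CPM, with 6 and 8 called lower. No endothelial or mural marker had a group mean of 0. For 8 choroid plexus markers the sums were 30.7, 273, 9139 and 98.8 CPM contralaterally and 0.502, 383 and 7.73 ipsilaterally in CTL mice, and 1432, 20379, 37868 and 5468 contralaterally and 1513, 465 and 199 ipsilaterally in BLZ945 mice, with 0 and 1 of 8 called lower in CTL and BLZ945 mice (3 and 8 with the mouse as a block). Of these, Slc4a5 was at 0 in both ipsilateral groups and Aqp1 in that of CTL mice. Fibroblast markers (16 genes) summed to 525 to 1836 and 188 to 753 CPM, with 2 and 4 called lower, and 13 border macrophage markers to 2301 to 8919 and 6839 to 14592 CPM, with 0 called in CTL and 4 called higher in BLZ945 mice. Markers of brain cells had lower mean sums on the stroke side as well. Those of the oligodendrocyte lineage (10 genes) summed to 737 to 6285 CPM contralaterally and 248 to 865 CPM ipsilaterally, with 2 and 4 called lower, astrocyte markers (10 genes) to 367 to 2388 and 193 to 903 CPM, with 0 and 4 called lower, and neuron markers (10 genes) to 24.8 to 167 and 0 to 51.8 CPM, with 0 and 1 called lower. Erythroid markers (5 genes) summed to 73.1 to 1162 and 7.10 to 150.0 CPM and neutrophil markers (10 genes) to 255 to 3101 and 315 to 1433 CPM, with 0 called in either treatment. Col4a1 and Col4a2 per 100 CPM of endothelial and mural markers were at 2.73, 1.62, 1.35 and 3.28 contralaterally and 1.92, 2.66 and 3.11 ipsilaterally in CTL mice and at 2.63, 2.61, 1.35 and 3.24 contralaterally and 0.855, 6.77 and 6.33 ipsilaterally in BLZ945 mice. On this scale the hemispheres overlapped in both treatments. Without the 4 contralateral libraries with over 5000 CPM of choroid plexus markers (A4, C3, C4 and D1), 0 members were called in either treatment, with 1 contralateral library left in BLZ945 mice that was assumed to vary like the other groups. The calls over all genes in this smaller set are not given here, so the loss of calls is not read as particular to the members. In the same fit, the members called with all libraries had log2 fold changes of -6.89 to -2.18 in CTL and -7.85 to -2.48 in BLZ945 mice. Col4a1 was at -2.88 and -2.60, beside -2.77 and -2.87 with all libraries, and Lamb2 at -2.18 and -2.53, beside -2.42 and -2.66. Col9a3 in BLZ945 mice was at -3.19, beside -6.15. The part of these cell types in the sdCAM values was not tested.

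**Figure D5:**
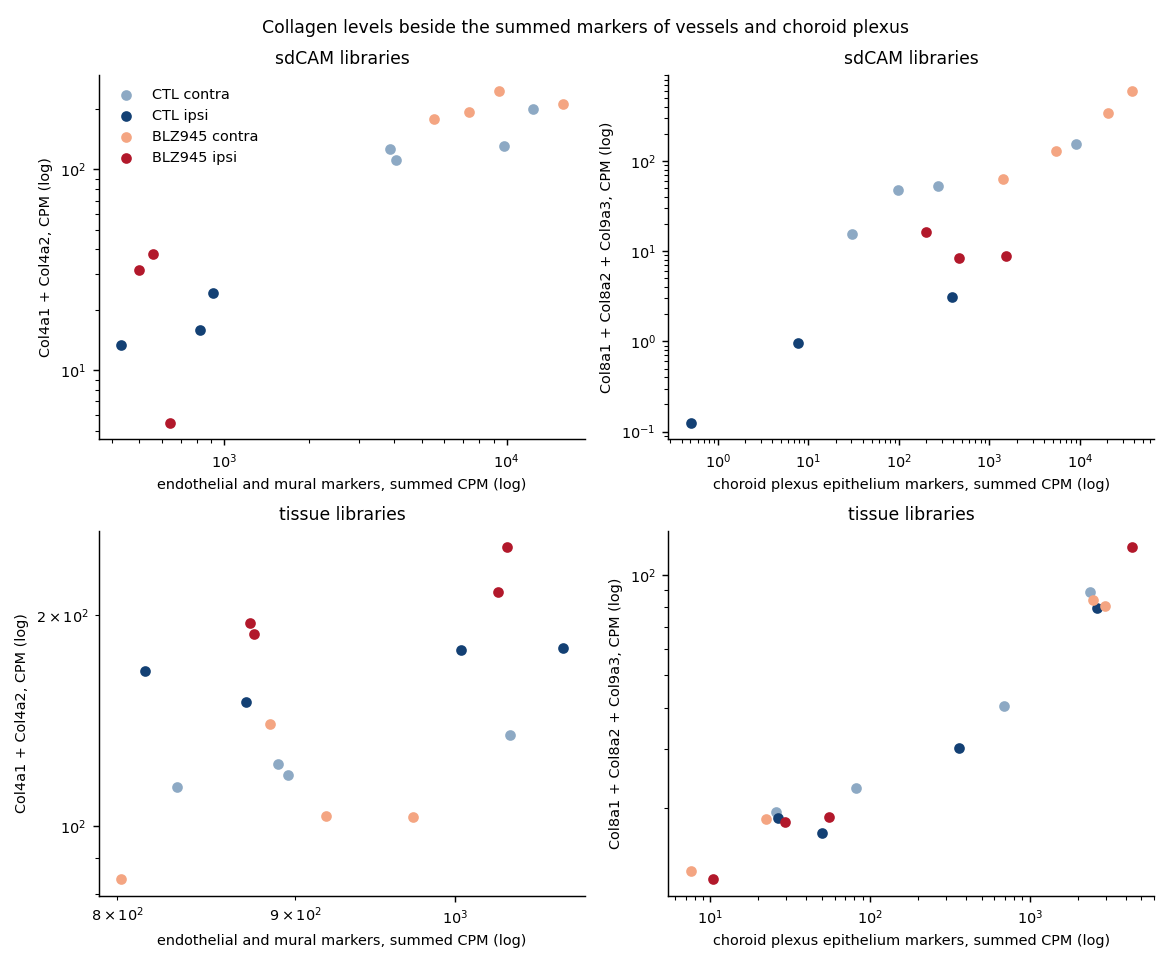
Col4a1 plus Col4a2 against summed endothelial and mural markers (left) and Col8a1, Col8a2 plus Col9a3 against summed choroid plexus markers (right), all in CPM on log axes, each point a library coloured by treatment and hemisphere, for sdCAM (top) and tissue (bottom). In sdCAM libraries the contralateral points lie at high vascular markers and high collagen IV and the ipsilateral points at low values of both.

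Between treatments, no member was called in sdCAMs by edgeR. For the difference of the responses this was 0 of 58 members and 0% of all genes in either direction (6 members, or 10.3%, and 4.98% of genes at an unadjusted p under 0.05; DESeq2 called 1 member, Col4a5, among 12 genes higher and 36 lower). Within the ipsilateral hemisphere 0 members and 0% of genes in either direction were called (9 members, or 15.5%, and 5.65% of genes at an unadjusted p under 0.05; DESeq2 called 3 members, Col18a1, Col4a5 and Col6a3, among 38 genes higher and 90 lower). Within the contralateral hemisphere it was again 0 members and 0% in either direction (5 members, or 8.62%, and 6.19% of genes at an unadjusted p under 0.05; 0 members by DESeq2). Col4a5, a minor collagen IV chain, was at 0, 5.22, 17.3 and 2.40 CPM contralaterally and 0, 0 and 0 CPM ipsilaterally in CTL mice and at 4.31, 5.89, 1.41 and 5.23 contralaterally and 0, 0 and 16.7 CPM ipsilaterally in BLZ945 mice. The counts came from 8 of the 14 libraries. For Col4a1 the difference of the responses was -0.10 ± 0.67 (SE), which covers both a larger and a smaller fall in BLZ945 mice.

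Genes that build, bind or accompany these proteins were taken from 4 lists, written with earlier results of these data known. Their calls in tissue are a description too. Over all genes tested, 1.12% were called higher in BLZ945 and 0.443% in CTL tissue. In tissue of BLZ945 mice, 1 of 31 genes for collagen synthesis and crosslinking was called higher, the collagen chaperone Serpinh1 (0.95 ± 0.23 SE, adjusted p = 0.048). Of 25 matrix receptors 1 was called higher, the hyaluronan receptor Cd44 (2.61 ± 0.43 SE, adjusted p = 0.0035), and of 31 other matrix proteins 4, led by the matricellular Thbs1 (3.398 ± 0.73 SE, adjusted p = 0.025) and Tgfbi (2.11 ± 0.40 SE, adjusted p = 0.0095), with Ccn1 and Emilin1. Of 16 genes of TGF-beta signalling 2 rose, among them the ligand Tgfb1 (0.80 ± 0.17 SE, adjusted p = 0.023). In CTL tissue 2 genes of these lists were called, among them Cd44 (2.52 ± 0.43 SE, adjusted p = 0.01), and no listed gene was called lower in either treatment. With the mouse as a block the calls in the 4 lists, in this order, were 3, 3, 7 and 2 in BLZ945 and 1, 2, 3 and 2 in CTL mice, all higher. The block also raised the calls over all genes, as given at the end. Median log2 fold changes of the 4 lists were 0.06, 0.04, 0.08 and 0.08 in CTL and 0.08, 0.11, 0.21 and 0.13 in BLZ945 mice. Over all genes tested they were -0.01 and -0.0032.

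In sdCAMs the same lists held calls in both directions. Over all genes tested, 0.426% were called higher and 2.36% lower in CTL mice, and 1.2% and 4.41% in BLZ945 mice. These shares are those without the mouse as a block. Of 30 synthesis genes, 4 were called higher in BLZ945 mice: the lysyl hydroxylase Plod1 (1.16 ± 0.22 SE, adjusted p = 0.008), the prolyl hydroxylases P3h2 (1.01 ± 0.26 SE, adjusted p = 0.035) and P4ha1 (0.77 ± 0.18 SE, adjusted p = 0.021), and the galactosyltransferase Colgalt1 (0.61 ± 0.16 SE, adjusted p = 0.043). With the mouse as a block 1 of the 30 was called higher. P4ha3 and Serpinh1 were called lower in BLZ945 mice, and P4ha3, Pcolce2 and Serpinh1 in CTL mice. Serpinh1, which rose in BLZ945 tissue, thus went from 134 to 11.8 CPM in CTL and from 174 to 20.8 CPM in BLZ945 sdCAMs. Of 25 matrix receptors, 4 were lower in CTL mice (Itga8, Bcam, Ddr1 and Itga1), and in BLZ945 mice 1 was higher (the integrin chain Itga9, 1.11 ± 0.30 SE, adjusted p = 0.039) and 6 lower, among them the laminin receptor Bcam (-5.06 ± 0.74 SE, adjusted p = 0.0017). Of 30 other matrix proteins 2 were lower in CTL and 5 in BLZ945 mice, with the subendothelial Tinagl1 in both (4 and 6 with the mouse as a block), and of 16 TGF-beta genes 1 was lower in CTL (Ltbp4) and 3 in BLZ945 mice (Tgfb2, Ltbp1 and Ltbp4; 0 and 3 with the block). Among the other matrix proteins, the elastic fibre protein Eln went from 58.0 to 0.627 CPM, Tinagl1 from 189 to 3.32 and the vascular netrin Ntn4 from 101 to 4.07 CPM in BLZ945 mice. Median log2 fold changes of the 4 lists were -0.90, -0.55, -2.26 and -0.32 in CTL and -1.05, -1.31, -1.66 and -0.06 in BLZ945 mice. Over all genes tested they were -0.11 and -0.15.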

How the data were processed

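The deposited values are raw gene counts from 50-cycle single reads, not normalized, in separate tables for tissue and sdCAMs. The submitters' notes name bcl2fastq 2.20, STAR 2.7.11a, featureCounts 2.0.8 and DESeq2 1.46.0, with an unclear genome build. The kit does not mark strand, and all libraries carry the same batch label.

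Genes summing to 8 (tissue) or 7 (sdCAM) counts or more were fitted with edgeR 4.0.16 (R 4.3.3, quasi-likelihood test, TMM scaling, 1 mean per treatment and hemisphere, no block, two-sided, Benjamini-Hochberg over all genes), checked on simulated data. DESeq2 1.42.0, other scalings, filters and thresholds, left-out mice and a block for the mouse were alternatives. Both hemispheres come from the same animal, and their deviations from group means correlated at 0.289 to 0.683 in tissue (8 mice) and 0.069 to 0.264 in sdCAMs (6 mice). Replicates differed by 4.49 to 139 times the sampling variance. CPM per kb used exon unions of GENCODE M21.

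The members and lists were chosen with earlier results of these data known. Members described singly were those called and, in each of 11 classes, the 2 with the highest mean CPM in tissue and the highest in sdCAMs (27 of 60), plus partner subunits; of the 4 lists, called genes were named. Hspg2, Nid1, Nid2, Col1a1 and minor collagen IV chains were added after their values were seen. No set test was run. Values of 1 member and 1 list gene are not reported here.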

Additional observations from a re-analysis of the deposited data

Results flagged for a closer look

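Among 48 groups of 4 libraries examined for a value standing apart (chance gives about 1 in 20), 4 were found. Col4a2 in ipsilateral tissue of BLZ945 mice was at 128 CPM in C2, with the next library at 98.6 CPM. The summed level of all members in contralateral tissue of CTL mice was 1207 CPM in A3, with the next library at 961 CPM. In contralateral sdCAMs of BLZ945 mice, C4 stood apart for Lamb2, at 136 CPM with the next at 90.3 CPM, and for the sum of all members, at 1726 CPM with the next at 1241 CPM.

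The sdCAM libraries that were left out, labelled as degraded RNA, also held member counts. The ipsilateral library of CTL mouse A3 had 196 counts on 40 members (0.363% of its 54055 counts), and that of BLZ945 mouse C2 had 96 counts on 35 members (0.174% of 55155). The sdCAM libraries used held 0.0120% to 0.181%.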

How the results depend on the processing

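Over 22 called member results and 19 alternatives each, 309 of 418 values kept their direction and call, 108 lost the call, and 1 turned over (Col6a3 in sdCAMs of BLZ945 mice, 1.53 with all 16 libraries). The causes were not tested.

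Of the member counts, that in CTL tissue (1 called) went to 0 at a log2 limit of 1, with A3 exchanged and without libraries rich in choroid plexus markers, an alternative chosen after seeing the data, and ranged from 0 to 1 with 1 mouse left out. That in BLZ945 tissue (6) went to 11 with the replicate block for the mouse, 2 with A3 exchanged and 1 without the choroid-rich libraries. In CTL sdCAMs (8) it was 4 with the replicate block, 4 with all 16 libraries, 1 to 8 with 1 mouse left out and 0 without the choroid-rich libraries. In BLZ945 sdCAMs (7) it was 13 by DESeq2, 4 with all 16 libraries, 1 to 8 with 1 mouse left out and 0 without the choroid-rich libraries. Between treatments, DESeq2 called 1 sdCAM member for the difference of the responses and 3 in the ipsilateral hemisphere, against 0. The block for the mouse changed no other count of members by over 1.5 times. Over all 18968 genes tested, calls went with the block from 84 to 178 in CTL tissue and from 213 to 378 higher in BLZ945 tissue. A3 exchanged left 0 genes called in CTL and 6 in BLZ945 tissue. Depth limits members near 1 count a library, such as Lama5 and Col8a1 in ipsilateral sdCAMs.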
